A study of Homo sapiens with 12 samples.

Results

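The genes described here are 38 members of the interferon response and of antigen presentation on major histocompatibility complex (MHC) class I, measured in Huh7 cells given Molidustat or its solvent. The 38 were listed by name, with earlier results of these data known, and each matched 1 of the 60666 genes listed in the deposited count files. Huh7 is an established human hepatoma cell line. Molidustat inhibits the prolyl hydroxylases that mark hypoxia-inducible factors for breakdown, and the study used it to switch on the hypoxia response in normal oxygen. The 4 groups were DMSO for 24 h, 25 µM Molidustat for 24 h, DMSO for 48 h and 25 µM Molidustat for 48 h, with 3 libraries each. All groups shared the same line and the same medium with serum, and no label names an added interferon, virus or nucleic acid. The study's methods call the 3 samples of a group biological replicates, whereas its deposited design text speaks of triplicate RNA extractions, so the p-values measure the spread between these samples, which may be partly technical.

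Interferons are secreted proteins that bind receptors on the same or on neighbouring cells. The receptors' kinases, JAK1 and TYK2 among them, phosphorylate STAT proteins, and STAT2 then joins IRF9 in a complex that binds the interferon-stimulated response element (ISRE) in the promoters of antiviral genes. Interferon gamma acts mainly through another promoter element, the gamma-activated site (GAS). MHC class I molecules, made of a heavy chain and beta-2-microglobulin (B2M), show peptides from inside the cell to cytotoxic T cells. The peptides are cut by the proteasome, carried into the endoplasmic reticulum by the TAP1 and TAP2 transporter, and loaded with the help of tapasin (TAPBP). Hepatocytes respond to interferons, and several genes of the list restrict hepatitis viruses.

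Promoter stretches of 7 members are shown because they carry the element that gives the list its name, both in members that these cells expressed and in members with no reads. The sequences are RefSeq's (assembly GRCh38.p14), written 5′ to 3′ on the strand of the gene, and the capitals mark the 9 letters searched for, GAAANNGAA or its reverse complement TTCNNTTTC, in which N is any base.
B2M: ctaagaaaagGAAACTGAAaacgggaaag
TAPBP: ggaggaaagtGAAAGTGAAaggaggaaga
ISG15: tcgggaaaggGAAACCGAAactgaagcca
IFITM3: aaactgttgaGAAACCGAAactactgggg
IFITM1: acacttctgaGAAACTGAAacgacagggg
IFIT1: tagctttagtTTCACTTTCccctttcggt
RSAD2: tgtttcaactTTCAGTTTCacatgtggaa

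The stretch of B2M lies at chr15:44711369-44711397 on the plus strand, and that of TAPBP at chr6:33314074-33314102 on the minus strand, its letters beginning 14 bases before the annotated start of transcription. Those of ISG15 (chr1:1013380-1013408, plus), IFITM3 (chr11:320877-320905, minus), IFITM1 (chr11:314024-314052, plus), IFIT1 (chr10:89392498-89392526, plus) and RSAD2 (chr2:6877623-6877651, plus) lie in the same kind of window, from 250 bases before to 50 bases after a start. RefSeq promoters were matched for 29 of the 38 members, in 37 windows because some members have more than 1 start. The ISRE letters were present on either strand in 26 of the 37 windows (70.3%), against 8.11% of all 35116 promoters. The GAS letters TTCNNNGAA, a palindrome, were present in 11 windows (29.7%), against 7.66% of all promoters. The core letters of the hypoxia response element, ACGTG or GCGTG on either strand (CACGT or CACGC in reverse), were present in 14 windows (37.8%), against 48.4% of all promoters. Matches of different motifs, and neighbouring matches of the same motif, may overlap. Of the 21 genes with ISRE letters in a window, 11 had enough counts to be tested and 10 did not, and of the 8 genes without them 5 were tested and 3 were not. A match is a description of the letters and not a bound site.

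Each library gave between 1499273 and 9179389 counts on genes. The libraries were prepared so that sequencing starts from the 3′ end of polyadenylated RNA, and thus a transcript is counted near its end whatever its length, and levels are given as CPM, the usual abbreviation for counts rescaled to the same total in every library, without division by length. Fold changes are on the log2 scale and come from 1 model (edgeR's quasi-likelihood test) fitted to the 14274 genes that passed a filter on low counts, with p-values adjusted over all of them by the method of Benjamini and Hochberg. A gene was called changed when its adjusted p was under 0.05 and its fold change was beyond 1 on the log2 scale. With 3 libraries against 3, an exact two-sided permutation test run on 1 gene has 0.1 as its smallest p.

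The library DMSO 48 h replicate 2 stood apart from the others. It was the smallest, and 50.4% of its listed reads lay on no annotated gene (exact 95% binomial interval 50.39 to 50.49%, counting error only), against 17.1 to 25.6% in the other 11. The TMM factor of this library was 0.629, against 1.01 to 1.08 in the other 11, which raises its CPM. Its correlation with the other libraries lay between 0.707 and 0.782 on the log scale across genes, which are not independent replicates. The members without B2M summed to 830.4 CPM in it and to between 232 and 419 CPM in the other 11, and B2M read 341 CPM in it against 1033 to 1821 CPM elsewhere. Values without it are given below for TAPBP, STAT2, ISG15, B2M, HLA-C, IFITM3, IRF9, IRF1 and TAP2, and for the signs at 48 h in the lists of other genes that it turned.

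The identity of the cells and of the treatment was checked with other genes. All 8 hepatoma markers examined were expressed, led by AFP, the fetal liver albumin homologue, at 7161 CPM. Together they summed to 12502 ± 976 CPM in DMSO and 18604 ± 1805 CPM in Molidustat at 24 h, and to 13138 ± 4199 and 24156 ± 2680 CPM at 48 h (SD, n = 3 each). All 8 had positive fold changes at both times, and AHSG, TF and SERPINA1, which encode secreted plasma proteins, were called higher over both times by edgeR's test, with and without the deviating library. Of 8 genes known as targets of hypoxia-inducible factors, 7 were tested, and 3 were called higher with Molidustat at 24 h, 1 at 48 h and 5 over both times, against 0.231%, 0.231% and 1.03% of all genes tested. Without DMSO 48 h replicate 2 all 8 were tested and 5, 1 and 5 were called, against 0.761%, 0.347% and 1.37% of all genes. Many of these targets had already been seen to rise in these libraries when they were listed. Their calls thus check the labels only and are no independent result. BNIP3, which acts in the removal of mitochondria, read 158 ± 49.0 CPM in DMSO and 1111 ± 129 CPM in Molidustat at 24 h (SD, n = 3 each). Of 9 leukocyte markers CD3E, MS4A1 and NKG7 had no read in any library, PTPRC had 7 counts in all, and the most abundant was LYZ, which encodes lysozyme, at 130.4 CPM. The leukocyte markers together summed to 192 ± 38 CPM in DMSO and 161 ± 8.16 CPM in Molidustat at 24 h, and to 125 ± 19.8 and 64.2 ± 16.2 CPM at 48 h (SD, n = 3 each). These sums are mostly LYZ, whereas CD14 and CD3D, the other leukocyte markers tested, at 3.77 and 1.26 CPM, had positive fold changes at both times (1.32 and 3.50 at 24 h, 2.11 and 1.99 at 48 h), and none of the 3 was called. Whether cells other than hepatoma cells, or the levels of the hepatoma markers, had a part in the results was not tested, and in bulk samples fewer cells of a type and less RNA per cell cannot be told apart.

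Most of the members were low, at 10 CPM or less on average over the 12 libraries. Of the 38 members 21 passed the filter, 10 exceeded 10 CPM on average over the 12 libraries, and 1 exceeded 100 CPM. No read was counted for IFI44, OAS2, RSAD2, IFITM1 and IRF7 in any of the 12 libraries, which allows a mean level of up to 0.0516 CPM (3 counts over all libraries, counting error only). RSAD2, or viperin, and OAS2, which makes the messenger that activates RNase L, are among the genes that interferon induces strongly in many cells, and IRF7 is the factor that amplifies interferon production. The other 12 members that did not pass had at most 55 counts over all libraries.

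**Figure D1:**
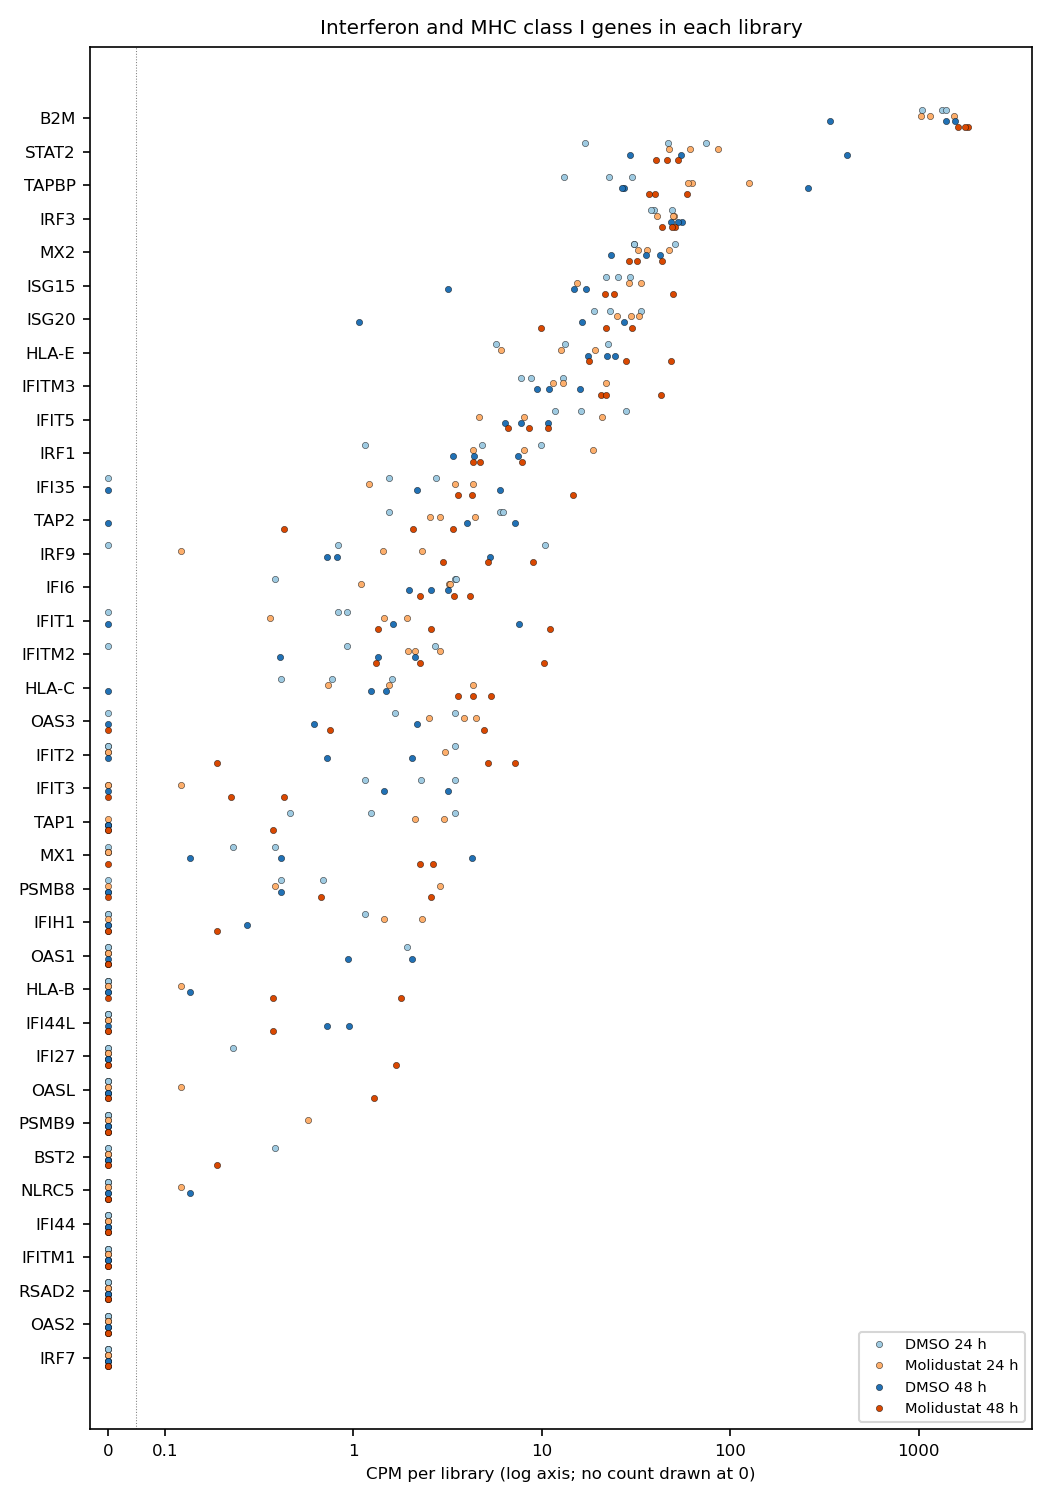
Level of each of the 38 members in each of the 12 libraries, in CPM on a log axis, with libraries that had no count drawn at 0 left of the dotted line. Members are ordered by mean level: B2M lies at 1334 CPM on average, 9 others exceed 10 CPM on average, and the last 5 have no count in any library.

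Among the antiviral effectors, MX2, a dynamin-like GTPase that blocks nuclear import of viral genomes, was the highest at 36.2 CPM. ISG15, a ubiquitin-like modifier, averaged 23.8 CPM, and ISG20, an RNA exonuclease, 22.5 CPM. IFIT5, which binds viral RNA ends, averaged 11.7 CPM, whereas its relatives IFIT1, IFIT2 and IFIT3 averaged 2.47, 1.82 and 1.02 CPM. MX1, the closest relative of MX2, averaged 0.858 CPM and had no count in 5 of the 12 libraries. IFITM3, a membrane protein that blocks entry of enveloped viruses, averaged 16.5 CPM, against 2.36 CPM for IFITM2 and no count for IFITM1. The IFITM genes are close paralogs, and reads that fit more than 1 of them equally well were not counted, so their levels are uncertain. IFI6, which shares exon sequence with the noncoding LINC02574 on its own strand, averaged 2.71 CPM, IFI35 3.66 CPM and OAS3 2.04 CPM. Of the members that did not pass, OAS1 had 29 counts, IFI44L 16, IFI27 10, OASL 4 and BST2, or tetherin, 2 counts over the 12 libraries.

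Of the 5 transcription factors 4 passed the filter and IRF7 had no read. STAT2 averaged 81.0 CPM, or 50.6 CPM over the 11 libraries other than DMSO 48 h replicate 2, and IRF3, the factor that starts interferon transcription after viral sensing, averaged 47.3 CPM. IRF1 averaged 6.59 CPM and IRF9 3.26 CPM. IRF3 shares exon sequence with BCL2L12 on the other strand, and IRF1 with an unnamed protein-coding gene and an antisense RNA on the other strand. IRF9 shares it with an unnamed protein-coding gene on its own strand. Reads that fit both genes of such a pair may have gone uncounted. IFIT2 and IFIT3 likewise share exon sequence with LIPA on the other strand. IFIH1, the cytosolic sensor of double-stranded RNA also called MDA5, had 32 counts over the 12 libraries and was not tested.

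The class I pathway was uneven from step to step. B2M averaged 1334 CPM and ranked 63 of the 14274 genes tested by mean level. The heavy chain genes were far below it, with HLA-E, a ligand of natural killer cell receptors, at 19.8 CPM, HLA-C at 2.11 CPM and HLA-B at 0.203 CPM. The heavy chain genes are polymorphic and similar to each other, and reads that fit several of them were not counted, so their levels are uncertain and may be too low. TAPBP averaged 63.6 CPM (45.8 CPM without DMSO 48 h replicate 2), TAP2 3.39 CPM and TAP1 0.891 CPM. TAP2 shares exon sequence with an unnamed protein-coding gene on its own strand, so reads that fit both may have gone uncounted. The immunoproteasome subunits PSMB8 and PSMB9, which replace subunits of the standard proteasome after interferon, averaged 0.668 and 0.0481 CPM. The subunits they replace, PSMB5 and PSMB6, averaged 768 and 1788 CPM. The remaining immunoproteasome subunit, PSMB10, averaged 15.1 CPM against 498 CPM for PSMB7, the subunit it replaces. NLRC5, the transactivator of class I genes, had 2 counts over the 12 libraries.

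**Figure D2:**
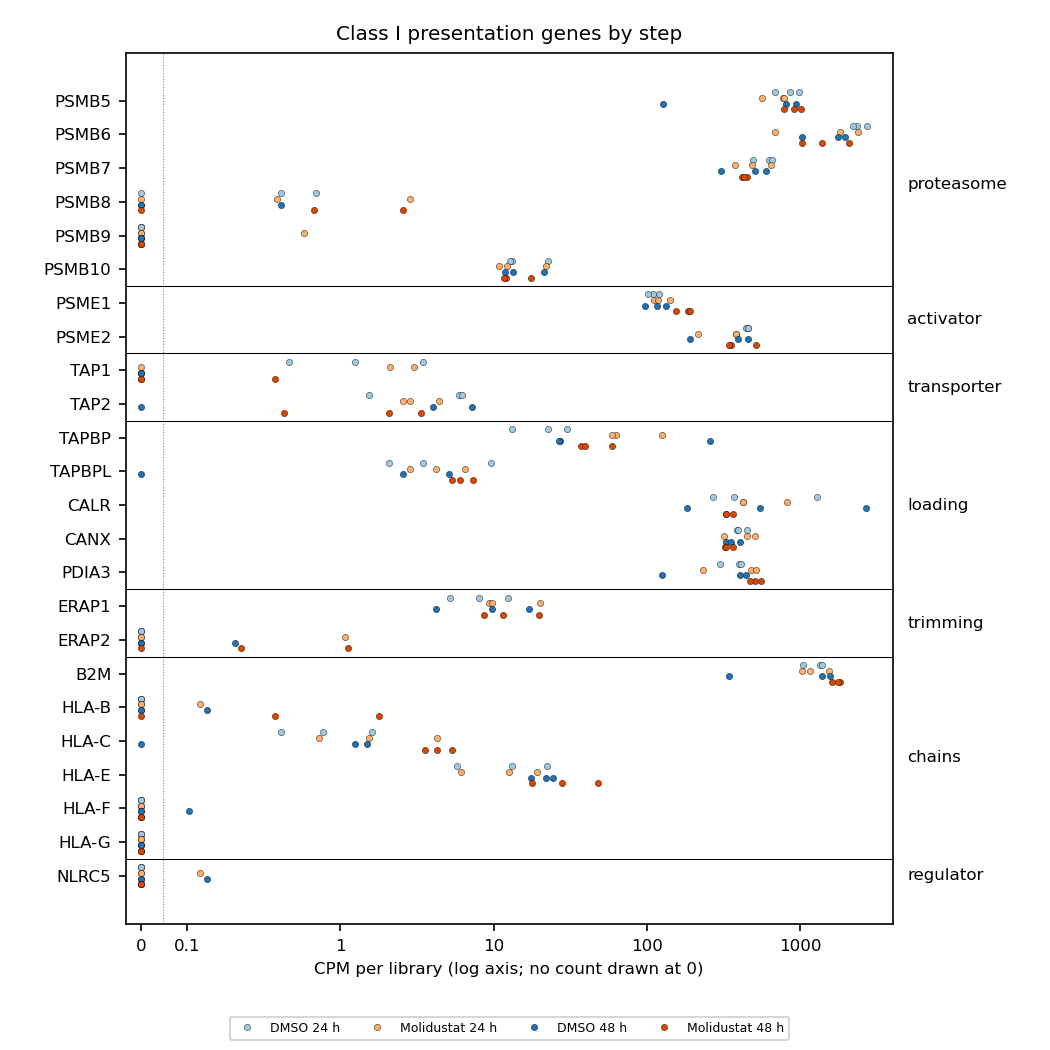
Level in each library, in CPM on a log axis, of genes of class I presentation grouped by step, with no count drawn at 0. The standard subunits PSMB5, PSMB6 and PSMB7 and B2M average 498 CPM or more, whereas PSMB8, PSMB9, HLA-B and NLRC5 lie near or at 0.

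At 24 h no member was called changed by edgeR's test, while 33 genes of the whole table were called, or 0.231% of those tested. Of the 21 tested members 13 had a positive and 8 a negative fold change, with a median of 0.16 on the log2 scale against 0.02 over all genes tested. Over fits that each left out 1 library the median ran from 0.0598 (without Molidustat 48 h replicate 2) to 0.46 (without DMSO 24 h replicate 2). MX1 had 2 counts in DMSO and none in Molidustat at 24 h, which gives no fold, and the median of the other 20 members was 0.18. At an unadjusted p under 0.05 stood 1 member, TAPBP, against 5.25% of all genes tested in either direction. TAPBP was also the single tested member for which every Molidustat library lay above every DMSO library, an order found in 7.26% of all genes, and no tested member showed the opposite order, found in 5.02%. IFIT3, which did not pass the filter, did show it, with 29 counts in DMSO and 1 in Molidustat. In the fit without DMSO 48 h replicate 2, where 15253 genes passed, IFIT3 was tested at 24 h and stood on the lower side at an unadjusted p of 0.0233 (adjusted p = 0.445 by edgeR's test), a level under 0.05 that 9.03% of genes reached. TAP1 and PSMB8 were tested there too and were not called.

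TAPBP encodes tapasin, which holds empty class I molecules at the TAP transporter (ENSG00000231925, GRCh38 chromosome 6, 33299694 to 33314284, minus strand, within the MHC region). At 24 h it read 13.1, 30 and 22.7 CPM in the DMSO libraries and 62.7, 126 and 59.4 CPM in the Molidustat libraries. The lowest treated library thus lay above the highest control. The fold change was 1.93 (standard error, SE, 0.71, 95% interval 0.42 to 3.43), with an adjusted p of 0.707 by edgeR's test. Over fits that each left out 1 library it ran from 1.48 to 2.20. Without DMSO 24 h replicate 1, or without Molidustat 24 h replicate 2, its unadjusted p was not under 0.05 by that test. At 48 h TAPBP read 27.2, 259.8 and 26.6 CPM in DMSO and 59.1, 36.9 and 39.6 CPM in Molidustat. The treated libraries again lay above replicates 1 and 3 of the controls and below replicate 2, which is the library that stood apart. The 48 h fold change was -1.16 with that library (adjusted p = 0.515 by edgeR's test). Leaving it out gave 0.74 (adjusted p = 0.816).

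Leaving out DMSO 48 h replicate 2 also changed the call at 24 h, where all groups share 1 estimate of the spread. Without it the 24 h fold change of TAPBP was 1.95 (SE 0.37, 95% interval 1.18 to 2.72) and its adjusted p was 0.0118 by edgeR's test, past both thresholds. In that fit 0.761% of the genes tested were called at 24 h, 0.347% at 48 h and 1.37% over both times. TAPBP was called over both times as well, with a fold change of 1.34 (SE 0.27, adjusted p = 0.0125 by edgeR's test). limma-voom with sample quality weights, which lowers the weight of a deviating library and keeps it in the fit, called TAPBP at 24 h, when 0.448% of genes were called. Without a filter on low counts edgeR's test on all 12 libraries called TAPBP at 24 h as well, when 0.373% of genes were called. Both DESeq2 and the weighted fit, run without the deviating library, called TAPBP at 24 h, when they called 1.51% and 0.597% of genes, and over both times, when they called 2.35% and 1.84%. DESeq2 on all 12 libraries gave no adjusted p for TAPBP at 24 h and called no member at 24 h, at 48 h or over both times, where it called 1.02%, 2.45% and 2.08% of all genes. The genes beside TAPBP were not called. RGL2 and ZBTB22, its nearest neighbours on the same strand, had 24 h fold changes of 1.0 and 1.55 from levels of 2.76 and 0.996 CPM in DMSO, DAXX had -0.12, and none of these 3 was called with or without the deviating library.

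**Figure D3:**
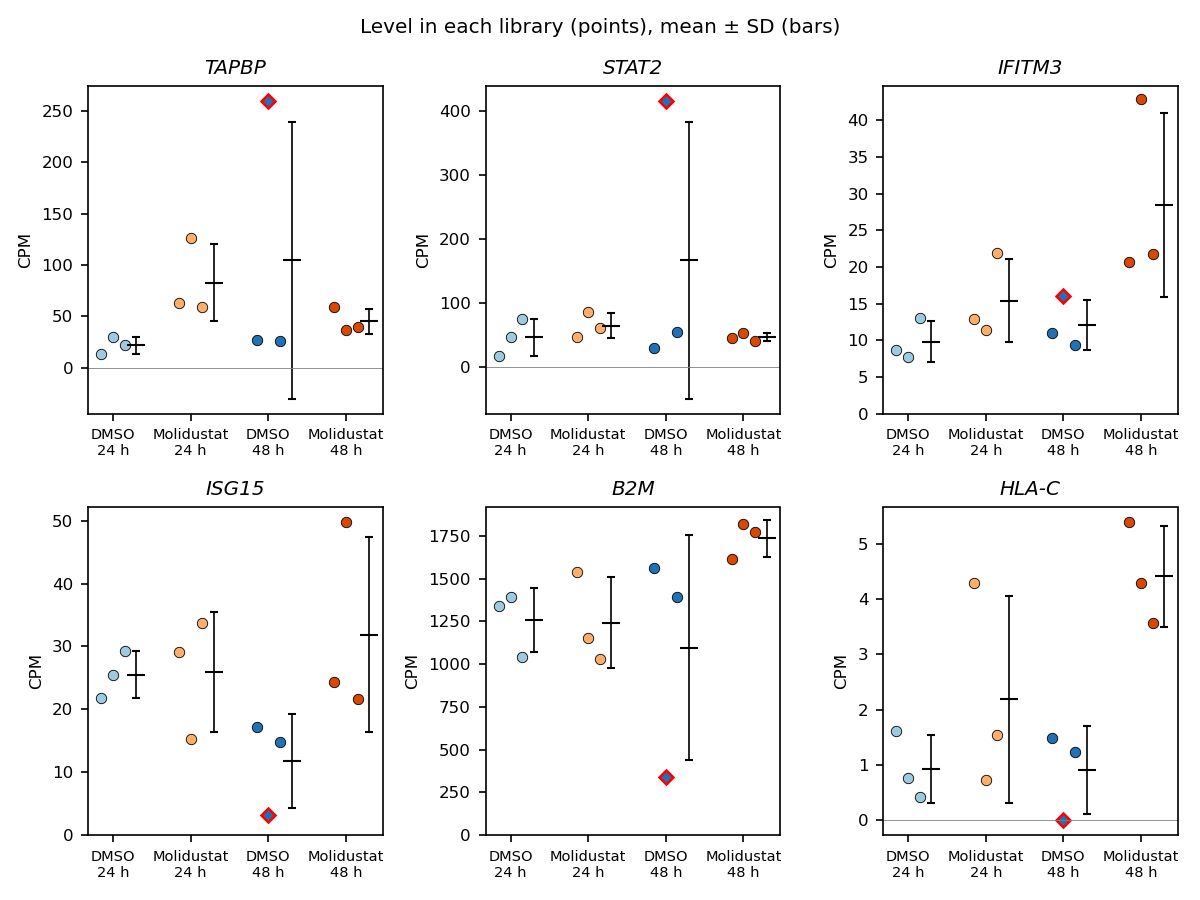
Level in each library (points), with the mean and SD of each group (bars), of TAPBP, STAT2, IFITM3, ISG15, B2M and HLA-C, in CPM on linear axes with a separate range for each gene. The diamond with a red outline is DMSO 48 h replicate 2, which reads 259.8 CPM for TAPBP and 415 CPM for STAT2, and 341 CPM for B2M.

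The other members with the largest fold changes in each direction at 24 h, apart from MX1, were OAS3, HLA-C, IRF9 and IFIT5. OAS3, the oligoadenylate synthetase that responds to long double-stranded RNA, read 3.44, 0 and 1.65 CPM in DMSO and 2.51, 4.49 and 3.85 CPM in Molidustat, with a fold change of 1.05 (SE 1.33). HLA-C read 1.61, 0.770 and 0.413 CPM in DMSO and 4.30, 0.728 and 1.54 CPM in Molidustat, with a fold change of 1.16 (SE 1.09). These 2 had 87 and 37 counts at 24 h. IRF9 read 0, 10.4 and 0.826 CPM in DMSO and 1.43, 0.121 and 2.31 CPM in Molidustat, with a fold change of -1.51 (SE 1.42). IFIT5, with 409 counts at 24 h, read 28.0, 16.2 and 11.8 CPM in DMSO and 4.66, 8.01 and 21.0 CPM in Molidustat, with a fold change of -0.72 (SE 0.56). In all 4 the groups overlapped, and the 95% intervals held 0. Single libraries moved these values. IRF9 turned to 1.52 without DMSO 24 h replicate 2. HLA-C was 0.26 without Molidustat 24 h replicate 1, OAS3 2.0 without DMSO 24 h replicate 1 and 0.51 without replicate 2, and IFIT5 -1.54 without Molidustat 24 h replicate 3 and -0.30 without DMSO 24 h replicate 1.

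Members with many counts bounded the change at 24 h more tightly. B2M read 1339, 1395 and 1042 CPM in DMSO and 1542, 1151 and 1033 CPM in Molidustat, and its fold change of -0.02 had a 95% interval of -0.96 to 0.92. IRF3 read 39.5, 48.9 and 38 CPM in DMSO and 50.2, 49.6 and 41.0 CPM in Molidustat, with a fold change of 0.16 and an interval of -0.43 to 0.75. MX2 read 31.0, 30.8 and 50.8 CPM in DMSO and 32.3, 47.3 and 36.1 CPM in Molidustat, with a fold change of 0.04 and an interval of -0.70 to 0.78. For these 3 members a change of 1 or more on the log2 scale in either direction lay outside the interval. For ISG15 the interval at 24 h was -1.02 to 1.07, and for IFI6, which read 3.44, 0.385 and 3.51 CPM in DMSO and 3.23, 1.09 and 3.27 CPM in Molidustat, it was -1.66 to 1.65.

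At 48 h again no member was called by edgeR's test, against 0.231% of all genes. Of the 21 tested members 17 had a positive and 4 a negative fold change, with a median of 0.57 against 0.01 over all genes tested. Without DMSO 48 h replicate 2 the same 21 gave 16 positive and 5 negative values with a median of 0.53. The median was 0.27 without Molidustat 48 h replicate 3, 0.85 without DMSO 48 h replicate 3, and 0.0748 over the 7 members with at least 10 counts in every library. The 3 IFIT genes, both IFITM genes, all 7 other antiviral effectors and all 3 class I chains that were tested had positive values, and both peptide supply genes, STAT2 and IRF3 had negative ones. This order by role rested in part on DMSO 48 h replicate 2, since without it IFIT5 (-0.12), ISG20 (-0.11) and MX2 (-0.17) were negative and STAT2 (0.12) and TAPBP (0.74) positive. At an unadjusted p under 0.05 stood IFITM3 and ISG15 on the higher side and STAT2 on the lower side, while 13.3% of all genes passed that level in either direction. In 4 members, IFITM3, ISG15, HLA-C and B2M, every Molidustat library lay above every DMSO library, as in 9.96% of all genes, and in none did every one lie below, as in 8.02%.

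**Figure D4:**
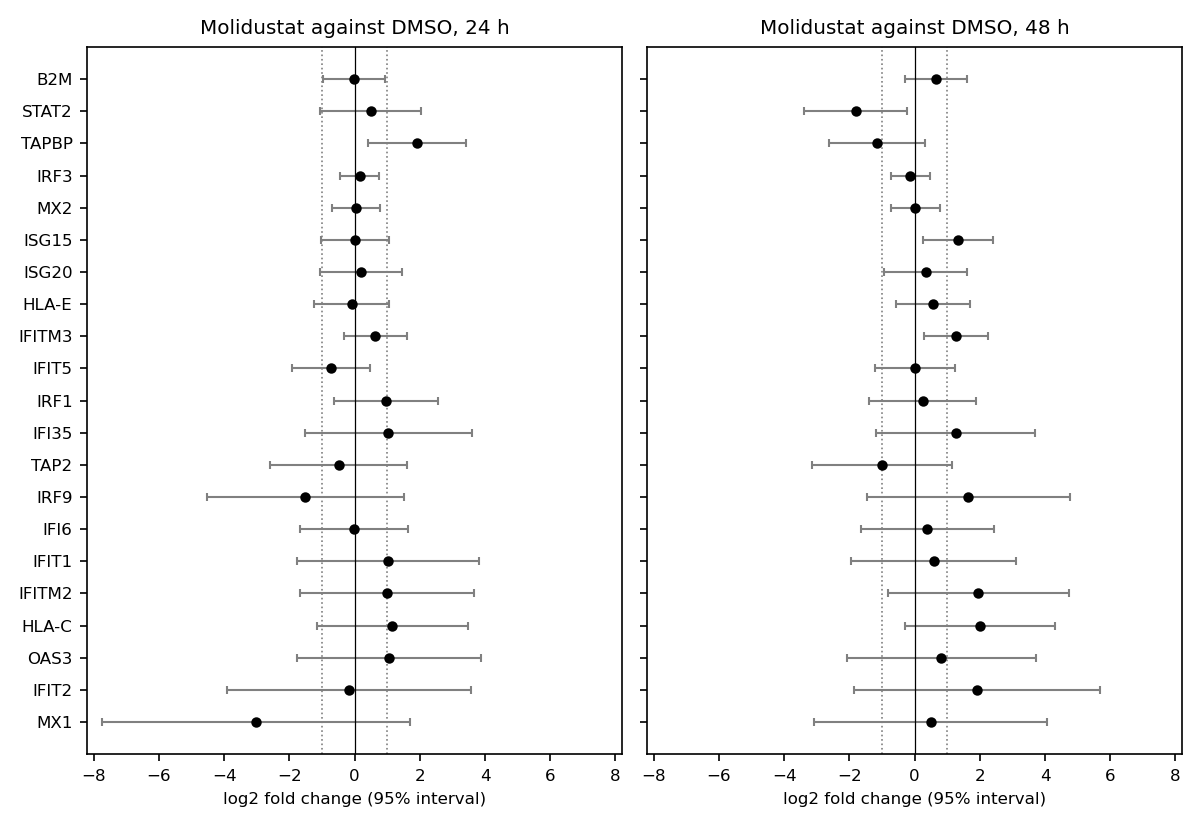
Log2 fold change of Molidustat against DMSO at 24 h (left) and 48 h (right) for the 21 tested members, ordered by mean level, with 95% intervals from edgeR's fit and dotted lines at -1 and 1. The widest interval is that of MX1 at 24 h and that of IFIT2 at 48 h, and those that exclude 0 belong to TAPBP at 24 h and to STAT2, ISG15 and IFITM3 at 48 h.

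IFITM3 (ENSG00000142089, chromosome 11, 319676 to 329475, minus strand) read 11.0, 16.0 and 9.40 CPM in DMSO and 20.7, 42.9 and 21.8 CPM in Molidustat at 48 h. All treated libraries lay above all controls, and the highest was Molidustat 48 h replicate 2. The fold change was 1.27 (SE 0.46, 95% interval 0.28 to 2.25, adjusted p = 0.247 by edgeR's test). It was 1.46 when the deviating library was left out (adjusted p = 0.428) and 0.84 when Molidustat 48 h replicate 2 was. limma-voom with sample quality weights called it at 48 h, with an adjusted p of 0.0419 and 1.95% of genes called. The weighted fit without the deviating library did not (adjusted p = 0.0718), and the adjusted p of IFITM3 at 48 h was under 0.05 in 1 of 24 settings, with a range of 0.0419 to 0.665. At 24 h IFITM3 read 8.73, 7.70 and 13.0 CPM in DMSO and 12.9, 11.4 and 21.9 CPM in Molidustat, with overlap and a fold change of 0.64. Its relative IFITM2 had a fold change of 0.99 (SE 1.26) at the earlier and 1.96 (SE 1.30) at the later time. At 48 h IFITM2 read 0.407, 2.13 and 1.34 CPM in DMSO and 2.25, 10.3 and 1.32 CPM in Molidustat, and its fold change was 0.58 without Molidustat 48 h replicate 2.

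ISG15 (ENSG00000187608, chromosome 1, 1001138 to 1014540, plus strand) read 17.2, 3.19 and 14.8 CPM in DMSO and 24.3, 49.8 and 21.6 CPM in Molidustat at 48 h. The lowest value was that of DMSO 48 h replicate 2. With it the fold change was 1.32 (SE 0.51, adjusted p = 0.267 by edgeR's test). When it was left out the value was 0.97 (SE 0.44, adjusted p = 0.732). Over all fits that each left out 1 library the 48 h fold change ran from 0.84 to 1.62. At 24 h the values were 21.8, 25.4 and 29.3 CPM in DMSO and 29.0, 15.3 and 33.6 CPM in Molidustat, and the fold change was 0.02. The treated libraries at 48 h thus lay in part within the range of the 24 h controls. UBE2L6, the enzyme that conjugates ISG15 to its targets, read 53.3 ± 15.1 CPM in DMSO and 92.7 ± 4.73 CPM in Molidustat at 48 h (SD, n = 3 each), with a fold change of 0.78 that was not called (0.58 in the fit of 11 libraries).

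Among the class I chains B2M (ENSG00000166710, chromosome 15, 44711358 to 44718851, plus strand) read 1562, 341 and 1391 CPM in DMSO and 1617, 1821 and 1771 CPM in Molidustat at 48 h. The fold change was 0.66 (SE 0.44) with the deviating library and 0.22 (95% interval -0.28 to 0.72) without it. HLA-C read 1.49, 0 and 1.24 CPM in DMSO and 5.39, 4.29 and 3.57 CPM in Molidustat, that is 23 against 53 counts. Its fold change was 2.01 (SE 1.08, adjusted p = 0.457 by edgeR's test). Leaving out the library at 0 gave 1.66. HLA-E read 17.6, 24.5 and 22.1 CPM in DMSO and 17.8, 27.9 and 48.3 CPM in Molidustat, with overlapping groups and a fold change of 0.57. HLA-B had 1 count in DMSO and 10 in Molidustat at 48 h (8, 0 and 2 by library).

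STAT2 (ENSG00000170581, chromosome 12, 56341597 to 56360203, minus strand) read 29.4, 415 and 54.9 CPM in DMSO and 46.1, 52.8 and 40.4 CPM in Molidustat at 48 h. The second control exceeded every other library for this gene, and the remaining values overlapped. The fold change was -1.81 (SE 0.75, adjusted p = 0.304 by edgeR's test) with that library and 0.12 (95% interval -0.84 to 1.08) without it, so the negative value rests on 1 library. Without a filter on low counts, and with that library kept, STAT2 was called lower at 48 h, when 2.69% of genes were called. At 24 h STAT2 read 17, 47 and 74.6 CPM in DMSO and 47.3, 86.1 and 61.0 CPM in Molidustat, with a fold change of 0.49. Its partner IRF9 read 0.813, 5.32 and 0.723 CPM in DMSO and 5.17, 3.0 and 9.02 CPM in Molidustat at 48 h, with a fold change of 1.65 (SE 1.47), or 2.86 (SE 1.55) without the deviating library. IRF3 read 48.5, 55.4 and 53.1 CPM in DMSO and 50.8, 48.9 and 43.4 CPM in Molidustat, and its interval at 48 h, -0.73 to 0.46, left out changes of 1 in either direction. IRF1 read 3.39, 7.45 and 4.34 CPM in DMSO and 7.86, 4.72 and 4.32 CPM in Molidustat, with a fold change of 0.24, or 0.53 without that library. At 24 h IRF1 read 4.82, 1.16 and 9.92 CPM in DMSO and 4.30, 18.7 and 8.08 CPM in Molidustat.

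The remaining members with the largest 48 h values were low. IFIT2 read 2.03, 0 and 0.723 CPM in DMSO and 7.19, 5.15 and 0.188 CPM in Molidustat, with a fold change of 1.92 (SE 1.78). Leaving out 1 library at a time gave 1.24 to 2.93 for IFIT2. TAP2 read 7.18, 0 and 4.03 CPM in DMSO and 3.37, 0.429 and 2.07 CPM in Molidustat, with a fold change of -1.01 (SE 1.01), or -1.47 (SE 0.92) without the deviating library, -0.29 without DMSO 48 h replicate 1 and -0.61 without Molidustat 48 h replicate 2. MX1 read 0.136, 4.26 and 0.413 CPM in DMSO and 2.25, 0 and 2.63 CPM in Molidustat. MX2, at 35.6, 23.4 and 42.2 CPM in DMSO and 29.0, 32.2 and 43.2 CPM in Molidustat, had a fold change of 0.02 and an interval of -0.72 to 0.77. IFI6 read 2.58, 3.19 and 1.96 CPM in DMSO and 2.25, 3.43 and 4.13 CPM in Molidustat.

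Some members too low to be tested had their counts in part of the groups, which is given as a description. OAS1 had 5 counts in DMSO at 24 h (0, 5 and 0 by library) and 24 in DMSO at 48 h (15, 0 and 9). It had none in the 6 Molidustat libraries. IFIT3 had 29 counts in DMSO and 1 in Molidustat at 24 h, and 17 and 2 at 48 h. TAP1 had 17 counts in DMSO and 36 in Molidustat at 24 h, and 0 and 2 at 48 h. IFIH1 had 5 and 24 counts at 24 h and 2 and 1 at 48 h. The largest counts of TAP1 and IFIH1 in a single library were 25 and 12. PSMB8 read between 0 and 2.87 CPM, and the 3 counts of PSMB9 were all in Molidustat 24 h replicate 3. These members were picked out after their counts were seen.

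Averaged over both times, no member was called by edgeR's test, against 1.03% of all genes. The median of the members was 0.32, against -0.01 over all genes, with 17 positive and 4 negative values. Without DMSO 48 h replicate 2 the median of these 21 was 0.50, and leaving out 1 library at a time gave medians of all tested members from 0.23 (without Molidustat 48 h replicate 3) to 0.56 (without DMSO 48 h replicate 3). In the fit without DMSO 48 h replicate 2 TAPBP, and IFIT3 on the lower side, joined IFITM3 at an unadjusted p under 0.05. That fit tested 24 members. Of its 15253 genes 1069 stood at that level on the higher and 740 on the lower side. With all libraries IFITM3 was the single member at an unadjusted p under 0.05, a level that 11.0% of all genes reached, with a fold change of 0.96 (SE 0.32, adjusted p = 0.261 by edgeR's test). limma-voom with sample quality weights called 2.20% of genes over both times, TAPBP among them. HLA-C had a fold change of 1.58 (95% interval -0.05 to 3.21), and the 95% interval of B2M was -0.35 to 0.99.

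The difference between the 48 h and 24 h effects of Molidustat was tested as an interaction, and no member and no gene of the table was called (0% of genes). The median of the members was 0.38, against -0.02 over all genes. Leaving out 1 library at a time gave medians from 0.0945 (without DMSO 24 h replicate 1) to 0.79 (without DMSO 48 h replicate 3), and the weighted fit gave -0.16. STAT2 and TAPBP stood at an unadjusted p under 0.05, both toward a lower effect at 48 h, against 6.78% of all genes. Without DMSO 48 h replicate 2 the difference for STAT2 went from -2.30 to -0.38, and for TAPBP from -3.08 to -1.21 (95% interval -2.32 to -0.10). In that fit IRF9 took the place of STAT2 under 0.05, toward a higher effect at 48 h (4.35, 95% interval 0.0872 to 8.61). Of the 31 counts of IRF9 in DMSO at 24 h, 27 lay in replicate 2. No share of all genes is given for this comparison in that fit. Without a filter on low counts STAT2 and TAPBP were called in this comparison, when 1.13% of genes were, and between times in DMSO, when 1.41% were. Between 24 h and 48 h in DMSO no member was called, against 0.00701% of genes. STAT2 and TAPBP again were the members at an unadjusted p under 0.05, a level reached by 8.14% of genes. Their fold changes of 1.82 and 2.21 went to -0.11 and 0.33 without DMSO 48 h replicate 2. In its absence the members at that level were IFIT1, at 2.86 (SE 1.26), and TAP1 on the lower side. TAP1 had 17 counts in DMSO at 24 h and 0 at 48 h. No share of all genes is given for that fit. Between 24 h and 48 h in Molidustat no gene was called (0%), the median of the members was 0.39 (-0.00823 without Molidustat 48 h replicate 2 and 0.0241 without Molidustat 24 h replicate 2), and MX1 and HLA-E stood at an unadjusted p under 0.05, against 4.58% of genes. This count of 2 members was 4 without DMSO 48 h replicate 2 (B2M higher and TAPBP lower in addition). It was 4 without Molidustat 24 h replicate 3, 1 without Molidustat 48 h replicate 3 and 0 without Molidustat 24 h replicate 2. These fits tested 24, 23, 23 and 22 members. The 4.58% belongs to the fit of all 12 libraries, and no such share is given for these fits. HLA-E, a heavy chain gene, had a fold change of 1.29 (SE 0.54). These comparisons share samples with the ones above and are not independent of them.

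The genes upstream of the list were examined from lists fixed by role. None of the 21 interferon ligand genes had a read in any library. Of 13 receptors, kinases and feedback regulators 11 were tested and none was called by edgeR's test with Molidustat at 24 h, 48 h or over both times. At an unadjusted p under 0.05 stood 1 of them at 24 h, SOCS1, a feedback inhibitor of the kinases, with a fold change of -1.74 (SE 0.53, adjusted p = 0.403), and 1 at 48 h, PIAS1, with -1.09 (SE 0.38, adjusted p = 0.233), against 5.25% and 13.3% of all genes at these times. PIAS1 read 132, 307 and 118 CPM in DMSO and 107, 76.8 and 74.8 CPM in Molidustat at 48 h, and its fold change was -0.55 (SE 0.28) when DMSO 48 h replicate 2, the highest of these, was left out. JAK1, the kinase shared by all interferon receptors, averaged 165 CPM, PIAS1, an inhibitor of STAT activity, 121 CPM, the receptor chain IFNAR1 70.8 CPM and the phosphatase PTPN2 70.7 CPM. Of 15 nucleic acid sensors and adaptors 8 were tested and none was called by edgeR's test, with 0 of them at an unadjusted p under 0.05 at 24 h (5.25% of all genes) and 1 at 48 h (13.3% of all genes), MAVS, which read 394 CPM in DMSO 48 h replicate 2. The fold change of MAVS at 48 h was -1.36 (SE 0.61), and -0.18 (SE 0.45) once that library was dropped. Over the sensors the signs at 48 h went from 4 positive and 4 negative to 2 and 6. The adaptor MAVS averaged 112 CPM, TANK 51.1 CPM and the kinase TBK1 31.5 CPM, while 4 of the 15 had no count in any library.

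Among 42 further interferon-stimulated genes 27 were tested, 7 had no count in any library, and none was called with Molidustat by edgeR's test. At 24 h 16 had a positive and 11 a negative fold change with a median of 0.05, and at 48 h 12 were positive and 15 negative with a median of -0.14. Leaving out DMSO 48 h replicate 2, in which this list summed to 3924 CPM against 1261 and 1373 CPM in the other 48 h controls, turned the 48 h values to 17 positive and 11 negative of 28 tested, with a median of 0.20. At an unadjusted p under 0.05 stood 1 at 24 h, TRIM14, on the lower side, against 5.25% of all genes, and at 48 h 3 stood on the higher and 6 on the lower side, while 13.3% of all genes passed that level. Once that library was left out the counts at 48 h were 0 and 1, and 6.60% of all genes passed. At 24 h 1 then stood on the higher side (UBE2L6) and 2 on the lower side (LAP3 and TRIM14), against 9.03% of all genes. The 4 most abundant were IRF2BP2, a corepressor, at 399.7 CPM, CNP at 147 CPM, ZC3HAV1, an antiviral zinc finger protein, at 146 CPM and SHISA5 at 133 CPM. For CNP, ZC3HAV1 and IRF2BP2 the highest library was DMSO 48 h replicate 2, at 635, 478 and 1069 CPM.

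Of 18 genes for peptide loading, trimming and the proteasome 15 were tested and none was called by edgeR's test, with 0 at an unadjusted p under 0.05 at 24 h and 2 at 48 h (PSME1 higher, CALR lower) beside the same 5.25% and 13.3% of all genes, and with 7 positive and 8 negative at 24 h and 6 positive and 9 negative at 48 h. PSME1, a subunit of the interferon-inducible proteasome activator, read 116, 96.9 and 134 CPM in DMSO and 156, 186 and 191 CPM in Molidustat at 48 h. All treated libraries lay above the controls, and the fold change of 0.61 (SE 0.27) had an adjusted p of 0.343 by edgeR's test, and it was 0.49 (SE 0.25) in the fit of 11 libraries. Its partner PSME2 averaged 348 ± 139.9 and 405 ± 97.0 CPM (SD, n = 3 each). CALR, the chaperone calreticulin, averaged 669 CPM and read 2678 CPM in DMSO 48 h replicate 2, above every other library. Its 48 h fold change was -1.73 (SE 0.75) with and -0.12 (SE 0.53) without that library, and the signs of the 15 genes at 48 h went to 9 positive and 6 negative. None of 11 MHC class II genes passed the filter with all libraries (HLA-DRA did without DMSO 48 h replicate 2 and was not called), 6 of them had no count, and CD74 and HLA-DRA had 61 and 55 counts over the 12 libraries.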

How the data were processed

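Total RNA of Huh7 cells was sequenced from the 3′ end of polyadenylated transcripts (QIAseq UPX 3' kit). The deposited unit is raw counts of reads per gene, 1 file per library, on build GRCh38, and the submitters' processing notes name bcl2fastq 2.17.1.14, cutadapt 1.9.1, STAR 2.7.9a, HTSeq 0.11.2 and DESeq2 1.26.0. The gene annotation, the strand setting and any use of molecular identifiers are not given in the sources used here. Reads without a single gene are in 5 summary lines, which entered neither totals nor tests. Reads on no gene made up 17.1 to 50.4% of the reads listed as gene, ambiguous, multiply aligned or on no gene.

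Gene names were matched by Ensembl identifier for 60437 of 60666 genes. Genes were filtered (edgeR's filterByExpr, minimum count 10, minimum total 15), scaled by TMM and fitted for the 4 groups in edgeR 4.0.16 (R 4.3.3), and CPM used the TMM-scaled totals. Adjusted p-values are Benjamini-Hochberg over 14274 genes. The code was tested on simulated data. Alternatives were other scalings, other filters, thinning to the smallest library, DESeq2 1.42.0, limma 3.58.1 (voom with sample quality weights), a replicate block, separate fits and leaving out each library. DESeq2 and voom without DMSO 48 h replicate 2 were added after seeing the data. Counts of replicates differed by more than sampling noise in every pair. Replicate numbers were taken from the labels and did not pair the libraries, whose correlations for equal numbers lay between -0.05 and 0.12.

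The members and the other lists were chosen with earlier results of these data known. Values of every library are given for tested members called and for the 3 with the largest change in each direction at that time. They are also given for the 5 most abundant and for tested members fixed by role. For members too low to test, counts per group are given for some, and totals over the 12 libraries or a range for others. Promoters came from RefSeq (GRCh38.p14), and no protein sequences are given here.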

Additional observations from a re-analysis of the deposited data

How the results depend on the processing

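The number of members called stayed at 0 under other scalings, thinning, a stricter filter, DESeq2 on all libraries and separate fits. Without a filter on low counts, where 28430 genes were tested and 106 called at 24 h, 764 at 48 h, 321 in the difference of effects and 400 between times in DMSO, TAPBP was called higher at 24 h (1 member), STAT2 lower at 48 h (1 member), both in the difference of effects (2 members lower) and both between times in DMSO (2 members higher). limma-voom with sample quality weights called 1 member at 24 h (TAPBP), 1 at 48 h (IFITM3) and 1 over both times (TAPBP). DESeq2 and that weighted fit, each without DMSO 48 h replicate 2, called 1 member at 24 h and 1 over both times, TAPBP. Leaving out 1 library at a time gave 0 to 1 members called higher at 24 h and 0 to 1 over both times (TAPBP, without DMSO 48 h replicate 2), and 0 in the other comparisons. The adjusted p of TAPBP at 24 h ranged from 0.000103 (DESeq2 without that library) to 1.0 over the 23 settings that gave one, was under 0.05 in 5 of them, and was 0.0505 when each comparison was fitted on its own libraries.

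The median of the members (log2) over leave-one-out fits ran from 0.0598 to 0.46 at 24 h, from 0.27 to 0.85 at 48 h, from 0.23 to 0.56 over both times, and from -0.00823 to 0.57 between times in Molidustat. At 48 h it was 0.0748 with at least 10 counts in every library (7 members) and 0.20 after thinning (12 members). Over both times it was 0.59 with a replicate block, although the numbers do not pair the libraries and the block changed no call, and 0.56 with DESeq2 without DMSO 48 h replicate 2. The median difference of effects was 0.38 with all libraries, 0.0945 to 0.79 over leave-one-out fits and -0.16 in the weighted fit. Between times in Molidustat it was 0.39, against 0.00841 with the stricter filter, 0.0107 in the weighted fit, -0.0845 after thinning and 0.0180 in the weighted fit without that library.

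Signs turned for members that were not called. At 24 h IRF9 was 0.42 in both weighted fits, IFIT2 0.74 with the block, B2M 0.0193 with the stricter filter and 0.0246 after thinning, MX2 -0.000530 by total counts and -0.0402 after thinning, ISG15 -0.0170 by total counts and -0.00862 with the block, and IFI6 0.0140 with RLE factors, 0.0119 without a filter, 0.00867 in separate fits, 0.0704 with the block, and 0.19 and 0.31 in the weighted fits. At 48 h IFIT5 was -0.13 and -0.18 in the weighted fits, -0.0326 after thinning and -0.0710 with DESeq2 without that library, OAS3 -0.16 in the weighted fit without it, and IRF3 0.0368 by total counts. MX2 was -0.10 and -0.12 in the weighted fits and -0.13 with DESeq2 without that library, where TAPBP was 0.65, 0.69 and 0.78, and STAT2 was 0.10 in the weighted and 0.17 in the DESeq2 fit without it.

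Leave-one-out ranges at 24 h were -0.21 to 0.0866 for B2M, -0.48 to 0.38 for IFI6, -5.55 to 5.4 for IFIT2, -2.39 to 1.52 for IRF9, -0.23 to 0.30 for ISG15, -0.13 to 0.30 for MX2, 0.26 to 1.84 for HLA-C, 0.51 to 2.0 for OAS3, -1.54 to -0.30 for IFIT5, 0.0916 to 1.01 for STAT2, 0.22 to 1.74 for IRF1, 0.35 to 2.28 for IFITM2 and 0.29 to 0.89 for IFITM3. At 48 h they were -0.19 to 0.26 for IFIT5, -0.0789 to 0.53 for IRF1, -0.26 to 2.47 for MX1, -0.18 to 0.21 for MX2, -1.28 to 2.02 for OAS3, 1.13 to 2.86 for IRF9, -1.62 to -0.29 for TAP2, 0.84 to 1.46 for IFITM3, 0.58 to 2.4 for IFITM2, -2.28 to 0.12 for STAT2 and -1.58 to 0.74 for TAPBP. The cause of these changes was not tested. Of the 38 members 17 had too few counts to test, and 3 counts equal 0.31 to 3.19 CPM in a single library.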
